A study of Mus musculus with 14 samples.

Results

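The serpins are a superfamily of proteins that mostly inhibit serine proteases, with some members acting on cysteine proteases and others having lost inhibitory function. An inhibitory serpin offers a reactive loop to the protease, which cuts it; the serpin then snaps into a new fold and traps the enzyme in a covalent complex that receptors of the low density lipoprotein family clear. In vertebrates the family is divided into clades lettered A to I: clade A holds secreted plasma proteins such as alpha-1-antitrypsin, clade B holds mostly intracellular inhibitors, and the smaller clades hold regulators of coagulation, plasminogen activation and complement, a collagen chaperone and neuroserpin. In skeletal muscle the plasminogen system and its serpins take part in repair after injury.

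Members were all non-control probes whose gene name begins with Serpin, a clade letter from a to i and a number. They numbered 76 of 55681 non-control probes and represented 60 genes of 36406 names on the array: 23 of clade A, 27 of clade B, 2 each of clades E, F and I, and 1 each of clades C, D, G and H. By RefSeq accession or symbol, all 60 matched a current gene, and 59 kept their symbol; Serpinb10-ps is now Serpinb10.

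Muscle satellite cells, the stem cells of skeletal muscle, were sorted from male mice: the gate required integrin alpha 7 with CD34, and left out cells bearing CD31, CD45, CD11b or Sca1. Their amplified, Cy3-labelled RNA was hybridised to single-colour Agilent arrays. C57BL/6 mice gave 3 Young samples (2 to 3 months), 3 Old samples (22 to 24 months) and 2 Geriatric samples (30 and 29 months, numbered 1 and 3). Mice of 12 months gave 3 SAMP8 samples, a senescence-prone strain, and 3 SAMR1 samples, its senescence-resistant counterpart. No allele, transgene or agent is named for any group, the labels do not say how many mice a sample pooled, and the study set ageing up to geriatric age beside a strain model of early senescence.

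Between 77.1% and 88.8% of all probes were well above background per array, lowest on SAMP8 2 and highest on Old 1, and no spot was saturated. Outlier spots numbered 969 on Geriatric 1, against 94 to 255 on the other arrays. All 10 satellite cell markers, among them Pax7 and Itga7, were well above background on every array. The Y-linked transcripts Ddx3y, Uty and Kdm5d were well above background on all 8 Geriatric, SAMP8 and SAMR1 arrays and on no Young or Old array, while Xist lay between 5.08 and 5.86 on the 6 Young and Old arrays and at or below −3.52 on the others. Xist was well above background on 10 of the 14 arrays. A further Y-linked marker, Eif2s3y, was well above background on all 14 arrays. It read −1.85 to −0.86 on the Young and Old arrays and −0.64 to −0.17 on the others. All samples are labelled male, so the 6 libraries labelled Young and Old went against that label, and in each comparison of Geriatric with Young or Old samples age and this division cannot be told apart. Old versus Young and SAMP8 versus SAMR1 lie within one side of it. Levels are log2 signals relative to each array's 75th percentile, and changes are limma log2 changes (± SE) with Benjamini-Hochberg adjusted p over all 32862 genes tested. In sorted bulk samples, fewer cells of a type and less RNA per cell cannot be told apart.

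Serpin probes were less often detected than probes in general. Of the 76 probes, 47.4% were well above background on all 14 arrays, against 66.0% of all probes. The filter of at least 2 arrays of a group was passed by 61 or 80.3%, against 89.6% of all probes. By the best-detected probe, 27 of the 60 genes were well above background on all 14 arrays, 19 on some arrays including at least 2 of a group, and 14 did not pass. Those 14 were Serpina12 (vaspin), Serpina4-ps1, Serpina7 (thyroxine-binding globulin), Serpinb2 (plasminogen activator inhibitor type 2), Serpinb3a, Serpinb3b, Serpinb5 (maspin), Serpinb7, Serpinb9b, Serpinb9d, Serpinb10-ps, Serpinb13, Serpinf2 (alpha-2-antiplasmin) and Serpini2. Among those on every array were Serpine2, Serpinf1, Serping1, Serpinh1 and Serpini1. Antithrombin (Serpinc1) was well above background on 12 arrays and heparin cofactor II (Serpind1) on 9.

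**Figure D1:**
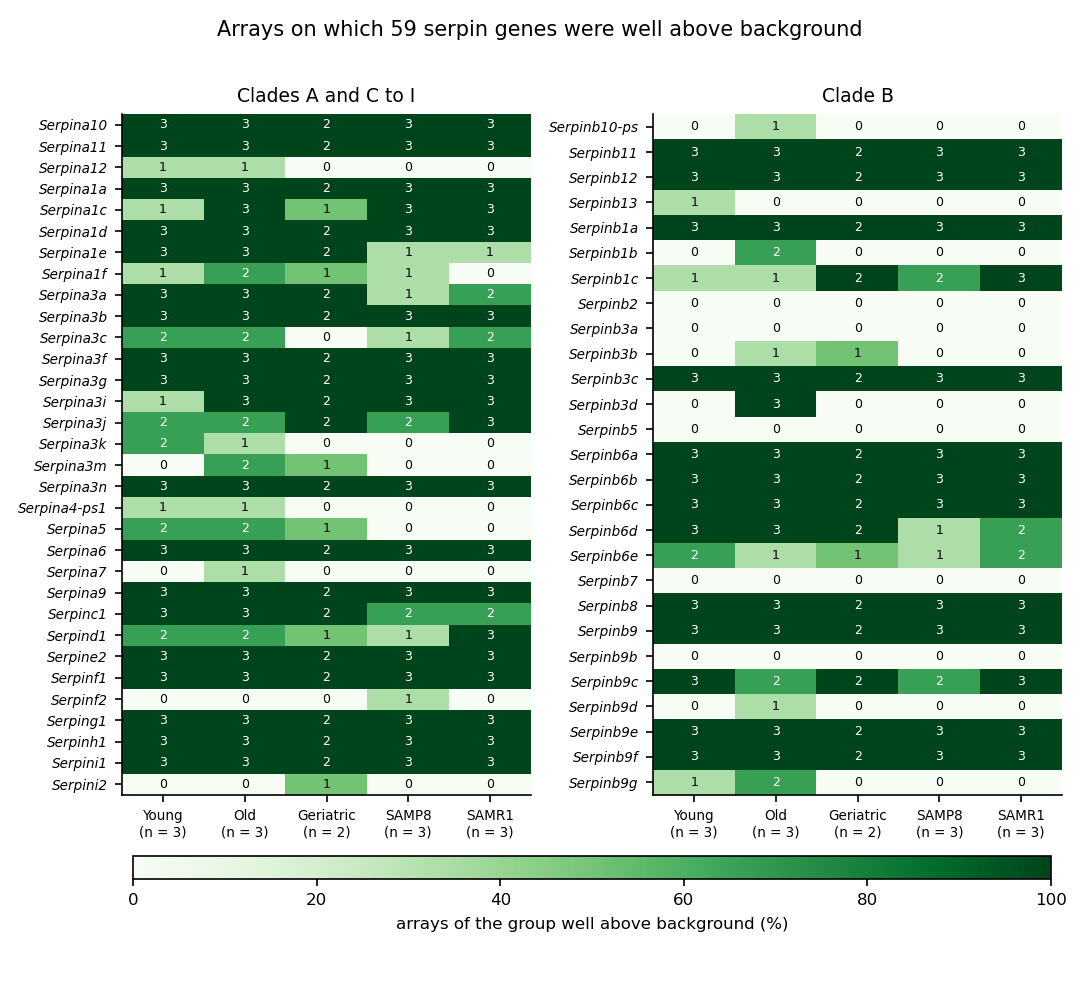
Number of arrays of each group on which the best-detected probe of each of 59 serpin genes was well above background (digits), shaded by the share of the group's arrays in percent. The genes of clades A and C to I are on the left and those of clade B on the right; 5 clade B genes were detected on no array.

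The 2 large clades are clustered in the genome. By the probe coordinates of build mm9, 22 clade A genes lie between positions 104854887 and 105651977 of chromosome 12, with Serpina7 alone on chromosome X. Clade B falls into 12 genes on chromosome 1 (positions 108778585 to 109504924) and 15 on chromosome 13 (32934693 to 34009855). Detection differed between the 2 clade B clusters: 4 of 12 genes on chromosome 1 and 7 of 15 on chromosome 13 were well above background on all arrays, and 5 of 12 against 13 of 15 passed the filter.

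Several neighbours are near copies, and their probes show it. Without gaps, 10 of the probe pairs between different genes matched at 21 or more bases and passed a minimum score. In this score each mismatch weighed more than a match. These pairs involved 10 genes. The representative probes of Serpina1a and Serpina1c matched at 50 of 51 overlapping bases, those of Serpina1c and Serpina1e at 49 of 59, those of Serpinb6a and Serpinb6c at 55 of 59, and those of Serpinb9f and Serpinb9g at 52 of 59. The signals of such genes may be shared, and their values are uncertain as values of 1 gene. The aligned stretches of 30 bases below, each set placed where most bases differ among its probes, are shown because the Serpina1, Serpinb6 and Serpinb9 results turn on them; capitals mark the bases that are not the same in all stretches of a set.
Serpina1a (probe at chr12:105091819-105091878, minus strand, mm9): tgaattgggttccttCcATtAaaCACAggC
Serpina1c (probe at chr12:105133165-105133224, minus strand, mm9): tgaattgggttccttCcATtAaaCACAggC
Serpina1e (probe at chr12:105185172-105185231, minus strand, mm9): tgaattgggttccttTcCAtTaaACACggG
Serpinb6a (probe at chr13:34009796-34009855, minus strand, mm9): tgcaatgGcaATtatgaaataaagggcttT
Serpinb6c (probe at chr13:33971686-33971745, minus strand, mm9): tgcaatgAcaGCtatgaaataaagggcttA
Serpinb9f (probe at chr13:33427039-33427098, plus strand, mm9): atttctatctgttttcaatatAtTtaCAtA
Serpinb9g (probe at chr13:33587669-33587728, plus strand, mm9): atttctatctgttttcaatatGtAtaAGtG
Serpina1a and Serpina1c were identical over the stretch shown. Without gaps 9 of 30 bases differed from Serpina1e, but an extra t in its stretch shifts the bases after it. Most of these capitals thus mark the shift and not separate differences. Between Serpinb6a and Serpinb6c 4 bases differed, and between Serpinb9f and Serpinb9g 5.

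Serpine2 and Serpina3n were the serpins that rose in Geriatric over Young cells, and each has 1 probe. Serpine2 encodes protease nexin-1, a secreted inhibitor of thrombin, urokinase and plasmin. Its probe spans mm9 positions chr1:79793476-79796093 on the minus strand, a distance longer than its 60 bases, so that it joins separate exons, and it overlaps no other serpin probe.
Serpine2 probe: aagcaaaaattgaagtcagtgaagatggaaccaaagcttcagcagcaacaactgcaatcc
Serpine2 read −1.79, −2.32 and −1.50 on the Young arrays, −1.06, −1.31 and −1.06 on the Old arrays and 1.05 on both Geriatric arrays. It read 0.16, 0.55 and 0.13 on the SAMP8 arrays and 0.28, 0.27 and 0.66 on the SAMR1 arrays. Every Geriatric array lay above every SAMP8 and SAMR1 array, these lay above every Old array, and the Old arrays lay above the Young arrays, while SAMP8 and SAMR1 overlapped. The Geriatric, SAMP8 and SAMR1 arrays read 0.13 to 1.05 and the Young and Old arrays −2.32 to −1.06. This is the same division as that of the Y-linked transcripts, and there is no second probe to compare. Geriatric cells averaged 1.05 ± 0.000662 (SD, n = 2), against −1.87 ± 0.415 in Young cells (SD, n = 3), a log2 change of 2.93 ± 0.26 or 7.60-fold (limma, adjusted p = 0.000216). Against Old cells (−1.14 ± 0.145, SD, n = 3) the change was 2.20 ± 0.26 or 4.59-fold (limma, adjusted p = 0.000393). The Old versus Young change of 0.73 ± 0.23 did not pass the test (limma, adjusted p = 0.144), although the arrays did not overlap, and neither did the SAMP8 versus SAMR1 change of −0.13 ± 0.23 (limma, adjusted p = 0.978). Within slide 2, which alone holds Geriatric arrays, the Geriatric versus Young change was 3.38 ± 0.27 with a single Young array, in a fit where 2 genes of the whole array passed (limma, adjusted p = 0.0831) and the Geriatric versus Old change 2.11 ± 0.22 (limma, adjusted p = 0.018). With slide as a block these changes were 3.1 and 2.28.

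Serpina3n encodes a secreted acute-phase inhibitor which in mice blocks granzyme B and leukocyte elastase; it belongs to the clade A cluster that stands in mice for the single human gene of alpha-1-antichymotrypsin. It read −2.58, −3.99 and −3.82 on the Young arrays, −0.99, −0.20 and −0.27 on the Old arrays and 0.26 and −1.48 on the Geriatric arrays. On the SAMP8 arrays it read −0.62, −1.28 and −1.24, and on the SAMR1 arrays −0.45, −0.23 and 0.41. The Young arrays lay apart below all others, the Geriatric arrays reached on either side of the Old ones, and the SAMP8 arrays lay below the SAMR1 arrays. The Old versus Young change was 2.98 ± 0.49 or 7.88-fold (limma, adjusted p = 0.0172) and the Geriatric versus Young change 2.85 ± 0.55 or 7.21-fold (limma, adjusted p = 0.0146). These comparisons share the Young arrays. Old and Geriatric cells averaged −0.49 ± 0.436 (SD, n = 3) and −0.61 ± 1.23 (SD, n = 2), and the Geriatric versus Old change was −0.13 ± 0.55 (limma, adjusted p = 0.884). In SAMP8 cells the mean was −1.05 ± 0.370, against −0.09 ± 0.448 in SAMR1 cells (SD, n = 3 each), a change of −0.96 ± 0.49 that did not pass the test (limma, adjusted p = 0.666).

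The Serpina3n calls were less firm than those of Serpine2. Without Young 2 or without Old 2 the adjusted p of Old versus Young was 0.0506 and 0.0509 (limma), and without Geriatric 1 the Geriatric versus Young change was 1.98 (limma, adjusted p = 0.124). Without Young 3 it was 2.67 (limma, adjusted p = 0.0584). Fitted on the 2 groups alone, the adjusted p was 0.0797 for Old versus Young and 0.126 for Geriatric versus Young (limma). Within slides the Old versus Young change was 3.00 on slide 1 and 3.36 on slide 2 and the Geriatric versus Young change 3.37 on slide 2. Old cells had a single array on slide 1, as Young cells had on slide 2, and within slides 0 genes of the whole array passed in Old versus Young and 2 in Geriatric versus Young, so that these values are given without a test. With slide as a block they were 3.07 and 3.03.

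**Figure D2:**
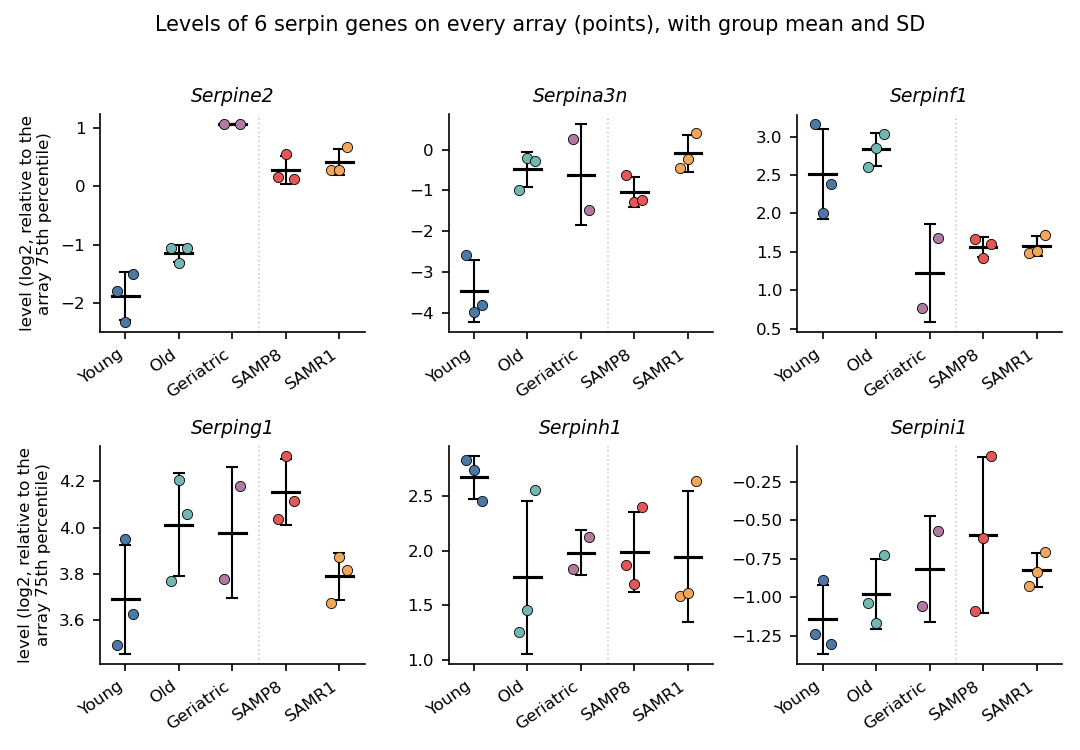
Levels of Serpine2, Serpina3n, Serpinf1, Serping1, Serpinh1 and Serpini1 (log2, relative to the array's 75th percentile; axes differ between panels) on each array, with the group mean (bar) and SD (whisker). Both Geriatric arrays read 1.05 for Serpine2, against −2.32 to −1.50 on Young arrays, and the 3 Young arrays lie below all others for Serpina3n.

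The promoters of these 2 genes are set side by side because both genes were called in Geriatric versus Young cells, although only Serpina3n was called in Old versus Young and only Serpine2 in Geriatric versus Old cells. The 250 bases before the RefSeq start are given, with capitals marking matches to any of 5 motifs. These were GGGCGG (the core bound by Sp1) and TATAAA (the TATA box) together with TTCNNNGAA (STAT factors), TGANTCA (AP-1) and TTGCNNCAA (C/EBP), all searched on both strands, with matches allowed to overlap.
Serpine2 promoter (GRCm38.p6 chr1:79858666-79858915, minus strand): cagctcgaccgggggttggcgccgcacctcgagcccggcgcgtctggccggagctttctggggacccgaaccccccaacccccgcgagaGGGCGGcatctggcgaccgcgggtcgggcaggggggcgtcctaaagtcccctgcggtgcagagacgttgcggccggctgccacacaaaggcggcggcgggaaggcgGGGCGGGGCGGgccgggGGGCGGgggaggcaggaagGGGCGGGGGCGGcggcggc
Serpina3n promoter (GRCm38.p6 chr12:104406458-104406707, plus strand): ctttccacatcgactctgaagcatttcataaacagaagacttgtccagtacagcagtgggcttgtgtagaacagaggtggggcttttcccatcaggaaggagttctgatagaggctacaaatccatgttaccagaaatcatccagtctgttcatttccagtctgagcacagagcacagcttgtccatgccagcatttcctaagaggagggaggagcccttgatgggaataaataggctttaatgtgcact
The Serpine2 window held 6 matches to GGGCGG, a motif present in 32.7% of the 32851 windows of the same length, and was 78.8% G and C. The Serpina3n window held none of the 5 motifs and was 46.4% G and C, against a median of 52.4% over all windows. The other motifs, absent from both windows, occurred in 12.4% (TATAAA), 7.02% (TTCNNNGAA), 6.75% (TGANTCA) and 1.74% (TTGCNNCAA) of windows. The sequences are RefSeq's, which gave a window for 49 of the 60 genes.

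The comparison of Old with Young cells asks what changed before geriatric age. Of the 46 serpin genes tested, 2 rose and none fell, where 1.20% of all genes rose, 0.240% fell and 1.44% passed the test in either direction. Of all genes called 83.3% were higher, against 67.8% with quantile normalization and 67.0% with the array median, and the same 2 serpins were called under both. Beside Serpina3n this was Serpinb3d, a mouse clade B gene of the squamous cell carcinoma antigen group. It read −2.58, −4.05 and −4.18 on the Old arrays, against −5.97, −7.18 and −6.31 on the Young arrays, none of which was well above background. The level in Old cells was thus at least 3.52-fold higher (limma, adjusted p = 0.0114; fitted means −3.60 and −6.49). This call was not made in the authors' deposited log2 values (limma, change 0.70, adjusted p = 0.076). Serpinb3d passed the detection filter only through the Old arrays, so that it was admitted by the group in which it is high, and its call is a description. The median change of the tested serpins was 0.30, against 0.06 for all genes, and 0.28 against 0.04 with genes undetected in a group set at their bound. Arrays did not overlap between the groups for 4 serpins, all higher in Old cells, or 8.70%, against 21.5% of all genes, 12.9% higher and 8.56% lower. Of the markers of other cells, Pdgfrb rose by 2.45 and Abcc9 fell by 2.70 of 8 smooth muscle and pericyte genes. The summed level of that list was 5.62 to 5.92 in Old cells and 5.92 to 6.17 in Young cells. Notch3 makes up most of that sum, with 5.28 to 5.41 in Old and 5.50 to 5.88 in Young cells. The part of such cells in the Serpina3n change was not tested.

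In Geriatric versus Young cells 2 of the 46 serpins rose, Serpine2 and Serpina3n, and none fell, where 1.58% of all genes rose, 2.61% fell and 4.19% passed the test in either direction. The median change of the serpins was −0.48, against −0.18 for all genes, and −0.37 against −0.14 with undetected genes at their bound. For 22 serpins the arrays did not overlap, 5 higher and 17 lower in Geriatric cells; this is 47.8%, against 44.2% of all genes, 15.1% higher and 29.1% lower. Serpinf1 (pigment epithelium-derived factor, a secreted serpin without inhibitory function that restrains vessel growth) had a change of −1.29 ± 0.34 (limma, adjusted p = 0.0584). Dpt rose by 1.48 among 7 tested fibro-adipogenic and mesenchymal markers, with all 7 well above background on every array. Their summed level, mostly Col3a1 and Dcn, was 5.33 to 6.06 in Geriatric and 5.68 to 5.76 in Young cells. Pdgfrb rose by 2.66 and Abcc9 fell by 2.94 among the smooth muscle and pericyte genes. Their sum, again mostly Notch3, was 5.62 to 5.97 in Geriatric and 5.92 to 6.17 in Young cells. The part of these cells in the 2 serpin changes was not tested.

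In Geriatric versus Old cells 10 of the 46 serpins passed the test, 2 higher and 8 lower, or 21.7%. Of all genes 20.0% passed, 5.52% higher and 14.4% lower, so that the share among serpins was near that of all genes. The direction depended on scaling: the serpin calls were 4 higher and 4 lower with quantile normalization and 3 higher and 6 lower with the array median, and of all genes called 27.7% were higher here, against 46.9% and 48.4% with those scalings. Arrays did not overlap for 25 serpins or 54.3%, 5 higher and 20 lower, against 54.9% of all genes, 19.5% higher and 35.4% lower. The median change was −0.62, against −0.22 for all genes, and −0.58 against −0.21 with undetected genes at their bound. The serpins that rose were Serpine2 and Serpinb6c, of a clade B group related to the intracellular inhibitor of cathepsin G. Serpinb6c read 3.17 and 3.25 on the Geriatric arrays and 2.59, 2.49 and 2.72 on the Old arrays, a change of 0.61 ± 0.18 (limma, adjusted p = 0.0379). The near copy Serpinb6a read 3.65 and 3.85 in Geriatric cells and 3.21, 3.12 and 3.29 in Old cells, a change of 0.55 (limma, adjusted p = 0.0544). The second Serpinb6c probe changed by 0.82 (limma over probes, adjusted p = 0.133). By their representative probes, the Geriatric, SAMP8 and SAMR1 arrays read 2.88 to 3.26 for Serpinb6c and 3.52 to 3.90 for Serpinb6a. The Young and Old arrays read 2.49 to 2.83 and 3.11 to 3.43, the same division as the Y-linked transcripts. On the second Serpinb6c probe the Young arrays (0.95 to 1.75) overlapped the SAMR1 arrays (1.26 to 2.06).

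Of the 8 that fell, 6 were clade B genes. Among these, Serpinb3d, Serpinb1b and Serpinb9g passed the detection filter only through the Old arrays, the group in which they are high, so the filter favoured a fall, and their values are given as descriptions; the count of clade B genes is no support for a change of the clade. Serpinb3d was well above background on 3 Old arrays and on neither Geriatric array, with fitted means of −8.19 and −3.60, and was at least 4.98-fold lower in Geriatric cells (limma, adjusted p = 0.00022). Serpinb1b, of the leukocyte elastase inhibitor group, read −8.10 and −8.17 in Geriatric cells and −4.60, −6.05 and −5.01 in Old cells, and was at least 1.62-fold lower (limma, adjusted p = 0.00324). Serpinb9g, of the granzyme B inhibitor group, read −8.02 and −8.17 in Geriatric cells and −3.72, −6.34 and −5.09 in Old cells, and was at least 1.83-fold lower (limma, adjusted p = 0.0203). For Serpinb1b and Serpinb9g the bound rests on 2 Old arrays well above background. These 3 probes read −7.15 or less on every Geriatric, SAMP8 and SAMR1 array, and none of those 8 arrays was well above background.

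The others of clade B were detected in both groups. Serpinb9e read −4.04 and −3.94 in Geriatric cells and −0.79, −2.86 and −2.21 in Old cells, a change of −2.04 ± 0.56 (limma, adjusted p = 0.0265), while its second probe changed by −0.82 (limma over probes, adjusted p = 0.571). Serpinb9f, the near copy of Serpinb9g, read −2.80 and −2.97 in Geriatric cells and −1.29, −0.98 and −2.16 in Old cells, a change of −1.40 ± 0.40 (limma, adjusted p = 0.031). Serpinb6d read −4.62 and −5.50 in Geriatric cells and −2.31, −2.08 and −2.52 in Old cells, a change of −2.76 ± 0.88 (limma, adjusted p = 0.048). In all 3 genes the 2 groups' arrays stood apart. The Serpinb6d and Serpinb6c calls were the least firm: leaving out 1 array at a time ended the Serpinb6d call in 10 of 14 fits and the Serpinb6c call in 8 of 14. With slide as a block Serpinb6d was not called, and with the replicate block neither gene was.

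Outside clade B, Serpinf1 and Serpina1e fell. Serpinf1 read 0.77 and 1.68 on the Geriatric arrays and 2.61, 2.85 and 3.03 on the Old arrays, a change of −1.61 ± 0.34 or 0.328-fold (limma, adjusted p = 0.00858). All 8 Geriatric, SAMP8 and SAMR1 arrays read 0.77 to 1.72 and all Young and Old arrays 2.00 to 3.16, the same division as the Y-linked transcripts, but by this probe alone. On the second probe the Young arrays (0.03 to 1.16) overlapped the SAMP8 arrays (0.64 to 1.12) and the SAMR1 arrays (0.64 to 1.26). That probe changed by −1.01 in Geriatric versus Old cells (limma over probes, adjusted p = 0.088), and without Geriatric 1 the change was −1.16 (limma, adjusted p = 0.0809). Serpina1e read −6.29 and −7.66 in Geriatric cells, where its representative probe was not well above background, and −2.25, −5.32 and −3.27 in Old cells, where that probe was detected on 2 arrays. By this probe it was at least 4.95-fold lower (limma, adjusted p = 0.0164), while its second probe, well above background on both Geriatric arrays, changed by −1.49 (limma over probes, adjusted p = 0.0943).

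The Geriatric versus Old counts leaned on single arrays. They were 4 without Old 1 or without Geriatric 3, 5 without Geriatric 1 and between 8 and 12 without any other array. The calls over all genes fell too, to 3860, 1989 and 3564 without Old 1, Geriatric 3 and Geriatric 1, against 6561 with all arrays. Old 1 also had the highest share of detected probes, 88.8%, against 82.9% and 83.6% on Old 2 and Old 3 and 83.2% and 79.8% on Geriatric 1 and 3, and 65 of the 76 serpin probes were well above background there, against 44 to 55 on the other arrays. The part of detection in the falls of dim serpins was not tested. Among leukocyte markers Lyz2 fell by 1.70, and the summed level of the 8 was 7.47 to 7.53 in Geriatric and 7.94 to 8.63 in Old cells. Itgam makes up most of that sum, with 7.42 to 7.48 in Geriatric and 7.89 to 8.59 in Old cells. Muscle fibre markers Myh2 and Mylpf also passed the test as lower. Mylpf was well above background on only 5 arrays and read −8.05 and −8.17 on the Geriatric arrays, so its fall is a description. The summed level of the list, mostly Acta1, Actn3 and Tnnt3, was 2.43 to 2.52 in Geriatric and 2.49 to 3.55 in Old cells. Acta1 read 1.15 and 1.16 in Geriatric and 1.43 to 2.98 in Old cells, and Actn3 0.95 and 1.06 against 0.14 to 0.99. The part of such cells in the serpin changes was not tested.

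**Figure D3:**
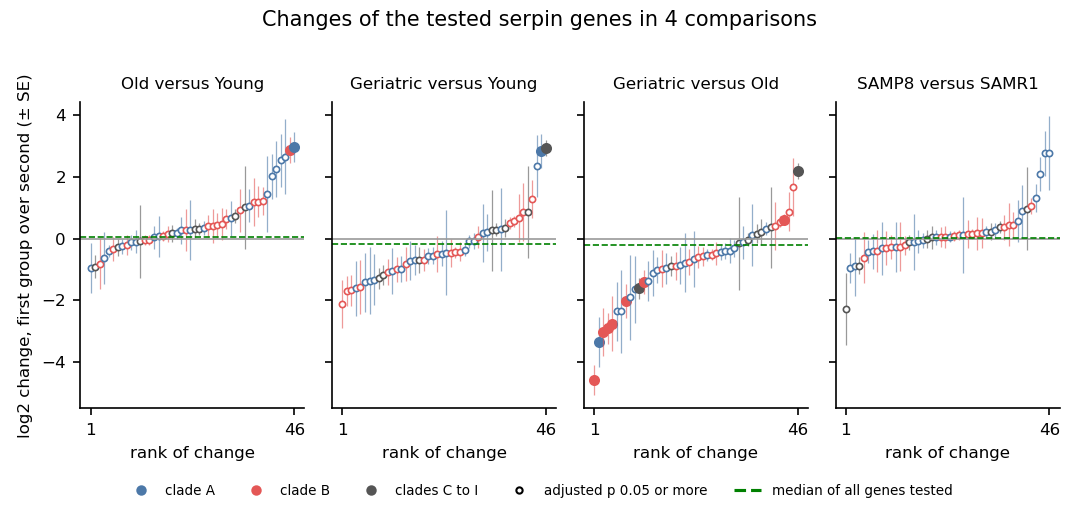
Log2 changes (± SE, limma) of the 46 tested serpin genes in 4 comparisons, ranked within each panel, first group over second. Filled points passed an adjusted p of 0.05: 2 in Old versus Young, 2 in Geriatric versus Young, 10 in Geriatric versus Old and none in SAMP8 versus SAMR1; the dashed line is the median of all genes tested.

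**Figure D4:**
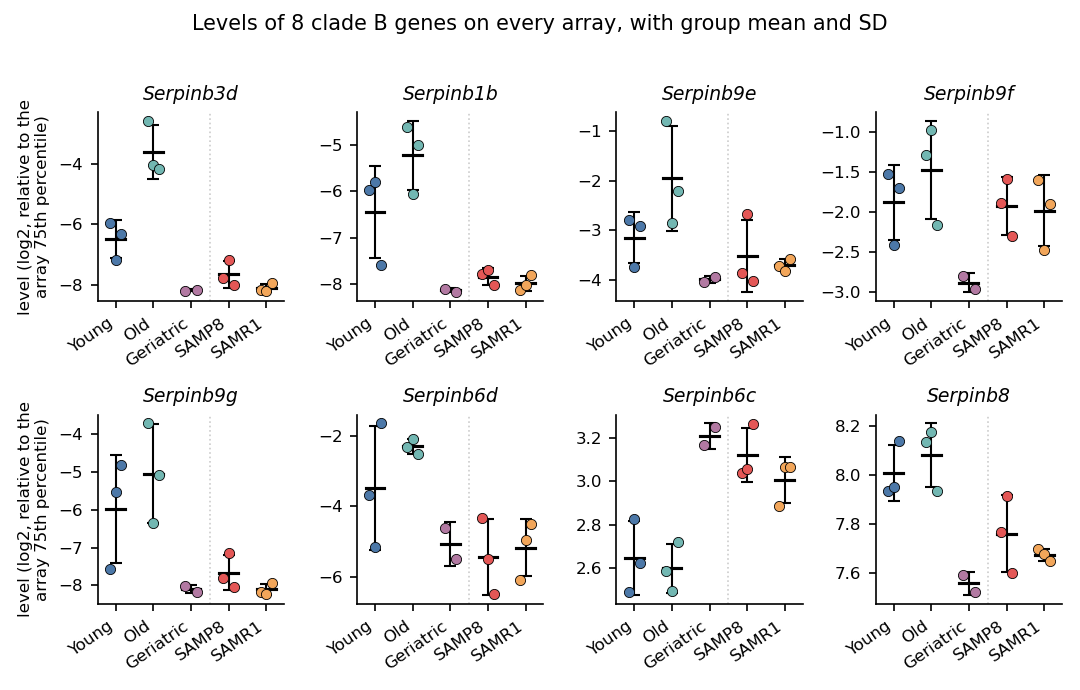
Levels of 8 clade B genes (log2, relative to the array's 75th percentile; axes differ between panels) on each array, with the group mean (bar) and SD (whisker). Serpinb3d, Serpinb1b and Serpinb9g are near the lowest signals on the Geriatric, SAMP8 and SAMR1 arrays, Serpinb6c is higher there than on Young and Old arrays, and Serpinb8 lies between 7.52 and 8.17 throughout.

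SAMP8 versus SAMR1 asks what the senescence-prone strain changes at 12 months. By limma none of the 46 serpins passed the test, 6 had an unadjusted p under 0.05, and 0.453% of all genes passed, 0.225% higher and 0.228% lower. Among the 6 were Serpina1a, Serpina1c, Serpina1d, Serpina1e and Serpinb3c, higher in SAMP8 cells; Serpina1d and Serpinb3c are named after their values were seen. The median change was 0.06, against 0.01 for all genes, and arrays did not overlap for 8 serpins, 6 higher and 2 lower in SAMP8 cells, or 17.4%, against 13.1% of all genes, 7.75% higher and 5.36% lower.

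The Serpina1 genes encode alpha-1-antitrypsin, the plasma inhibitor of leukocyte elastase, which is 1 gene in humans and several in mice. Serpina1e read −2.46, −1.41 and −1.73 on the SAMP8 arrays, against −4.89, −4.38 and −4.64 on the SAMR1 arrays, a change of 2.77 ± 0.73 (limma, adjusted p = 0.21). Serpina1a read −1.72, −0.63 and −0.95 in SAMP8 cells, against −3.30, −2.97 and −3.29 in SAMR1 cells, a change of 2.09 ± 0.55 (limma, adjusted p = 0.202). Serpina1c read −1.59, −0.68 and −1.09 in SAMP8 cells, against −4.03, −3.61 and −4.04 in SAMR1 cells, a change of 2.78 ± 1.21 (limma, adjusted p = 0.563). For all 3 every SAMP8 array lay above every SAMR1 array, and the 3 probes are those with the shared bases printed above. The representative probe of Serpina1d shares no such stretch with another serpin probe, but probes were not compared with the transcripts of other genes. Serpina1d read −1.15, 0.79 and 0.49 in SAMP8 cells, against −1.57, −1.24 and −1.0 in SAMR1 cells, a change of 1.32 ± 0.45 with overlapping arrays (limma, adjusted p = 0.379). The second Serpina1d probe read −3.65, −1.72 and −1.55 in SAMP8 cells, against −5.74, −8.09 and −5.18 in SAMR1 cells, where it was well above background on 2 arrays; there the arrays did not overlap, and the change was 4.03 ± 1.09 (limma over probes, adjusted p = 0.234). The second probe of Serpina1a changed by 0.91 and that of Serpina1e by 0.07 (limma over probes, adjusted p = 0.254 and 0.993). With a normexp background correction Serpina1a, Serpina1c and Serpina1e passed the test, and in the authors' deposited log2 values Serpina1c and Serpina1e did.

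**Figure D5:**
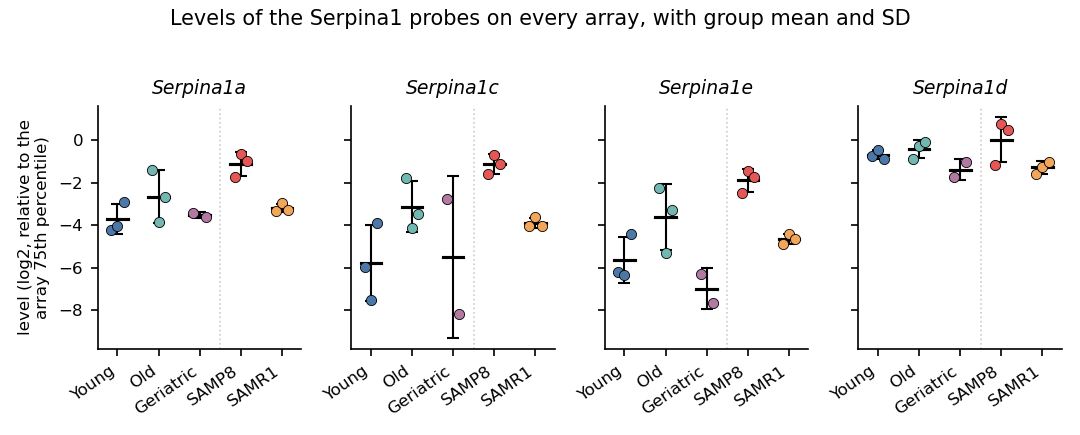
Levels of the representative probes of Serpina1a, Serpina1c, Serpina1e and Serpina1d (log2, relative to the array's 75th percentile) on each array, with the group mean (bar) and SD (whisker). The SAMP8 arrays lie above the SAMR1 arrays in the first 3 panels, and in the fourth SAMP8 1 (−1.15) falls among the SAMR1 arrays.

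Whether a Geriatric versus Young change differed from a SAMP8 versus SAMR1 change was tested directly, in a contrast of the 2 changes, which share no array. It passed for 2 of the 46 serpins, Serpine2 and Serpina3n, both more positive in Geriatric versus Young, where 0.539% of all genes passed in that direction, 1.19% in the other and 1.73% in all. The difference was 3.05 ± 0.35 for Serpine2 and 3.81 ± 0.73 for Serpina3n (limma, adjusted p = 0.0014 and 0.0257). The replicate block left only Serpine2, with 0.0577 for Serpina3n (limma, adjusted p).

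The complement regulator, the collagen chaperone and neuroserpin are given by their levels. Serping1, the C1 inhibitor that acts on complement and contact proteases, averaged 3.69 ± 0.236 in Young, 4.01 ± 0.222 in Old and 3.98 ± 0.282 in Geriatric cells, and 4.15 ± 0.141 in SAMP8, against 3.79 ± 0.103 in SAMR1 cells (SD, n = 3 each and 2 Geriatric). Neighbouring age groups overlapped, and the 3 SAMP8 arrays lay above the 3 SAMR1 arrays with a change of 0.36 ± 0.20 (limma, adjusted p = 0.693). Its second probe, also well above background on all 14 arrays, did not show either pattern: the Geriatric arrays (3.99 and 4.09) lay above the Old arrays (3.41 to 3.66), and SAMP8 (3.59 to 3.76) overlapped SAMR1 (3.36 to 3.62). Serpinh1, a chaperone of procollagen in the endoplasmic reticulum, averaged 2.67 ± 0.195 in Young, 1.76 ± 0.698 in Old and 1.98 ± 0.206 in Geriatric cells, and 1.99 ± 0.364 in SAMP8, against 1.94 ± 0.600 in SAMR1 cells. The Old versus Young change of −0.92 ± 0.37 did not pass the test (limma, adjusted p = 0.244), and Old 3, at 2.55, lay among the Young arrays. Both Geriatric arrays (1.84 and 2.13) lay below the Young arrays (2.45 to 2.83), but the change of −0.69 ± 0.42 did not pass either (limma, adjusted p = 0.351). Serpini1, neuroserpin, which inhibits tissue plasminogen activator, stayed between group means of −1.14 in Young and −0.59 in SAMP8 cells with overlapping arrays in all 4 comparisons.

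In clade B the highest reading representative probe was that of Serpinb8, an intracellular serpin whose human form inhibits furin. It averaged 8.01 ± 0.114 in Young, 8.08 ± 0.129 in Old and 7.56 ± 0.0473 in Geriatric cells, and 7.76 ± 0.158 in SAMP8, against 7.67 ± 0.0251 in SAMR1 cells. The Geriatric arrays lay below the Young and Old arrays, with changes of −0.45 ± 0.18 and −0.52 ± 0.18 that did not pass the test (limma, adjusted p = 0.171 and 0.0581). The Geriatric, SAMP8 and SAMR1 arrays read 7.52 to 7.91 and the Young and Old arrays 7.93 to 8.17, the same division as the Y-linked transcripts. In clade A it was that of Serpina9, known from germinal centre B cells, with group means of 1.65 in Young, 1.53 in Old and 1.09 in Geriatric cells, and 1.54 in SAMP8, against 1.59 in SAMR1 cells. Antithrombin and heparin cofactor II, liver proteins of the coagulation system, varied more between arrays of a group than between groups: Serpinc1 had SDs of 0.568 to 2.63 and Serpind1 of 0.538 to 2.38.

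The proteases and receptors that serpins act on were followed as lists, to be read against the shares of all genes given above: 1.20% higher and 0.240% lower in Old versus Young, 1.58% and 2.61% in Geriatric versus Young, and 5.52% and 14.4% in Geriatric versus Old cells. Of 20 genes of the plasminogen and thrombin system, Procr, the protein C receptor, rose by 2.69 in Old versus Young cells (limma, adjusted p = 0.0291), and the median change of the list was 0.53. In Geriatric versus Young cells F2r, the thrombin receptor, rose by 1.70 and Vtn (vitronectin) by 1.12, and Procr was at least 2.01-fold lower (limma, adjusted p = 0.023, 0.0205 and 0.0177; list median 0.39). In Geriatric versus Old cells Procr was at least 12.9-fold lower and Proc fell by 1.75 (limma, adjusted p = 0.000207 and 0.0346; list median −0.12), and none of the 20 rose. Plg had a value on 1 Geriatric array only, which was not well above background, and is not counted here. Of 11 complement and contact genes, Kng1 (kininogen) rose by 2.76 and C1rb by 1.10 in Old versus Young cells (limma, adjusted p = 0.0161 and 0.0103), C1ra rose by 1.24 in Geriatric versus Young cells (limma, adjusted p = 0.0174), and Kng1, F11 and Bdkrb2 fell by 2.88, 2.62 and 2.19 in Geriatric versus Old cells (limma, adjusted p = 0.0031, 0.00957 and 0.025). C1ra and C1rb are near-identical genes, and their signals may be shared.

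Of 13 tested granule proteases of mast cells and lymphocytes, 4 fell in Geriatric versus Old cells, where 14.4% of all genes fell, Tpsb2 by 1.97, Mcpt4 by 4.26 and Gzma by 2.27, with Cpa3 at least 1.64-fold lower from 1 Old array above background, and none passed in the other comparisons. None of 13 tested cysteine cathepsins passed in any of the 4 comparisons. Of 5 tested clearance receptors Vldlr rose by 1.15 in Geriatric versus Old cells. Of 21 procollagen folding partners of Serpinh1, Fkbp14 rose by 1.46 in Geriatric versus Young cells and by 1.42 in Geriatric versus Old cells, and Sec23a rose by 1.34 in Geriatric versus Old cells. Of 13 tested fibrillar and basement membrane collagens, Col4a5 was at least 1.54-fold higher in Old and at least 3.75-fold higher in Geriatric than in Young cells, and Col4a3 fell by 1.49 in Geriatric versus Old cells. In SAMP8 versus SAMR1 cells no gene of the 7 lists passed the test.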

How the data were processed

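The deposited scanner files hold each spot's background-subtracted processed signal, a linear intensity, made with Agilent Feature Extraction 10.7.3.1 on build mm9, per the file headers. The authors' deposited table holds log2 values, whose making the labels and headers do not describe, and served as an alternative. Control and outlier spots were left out, spots of a probe averaged, and log2 signals reduced by each array's 75th percentile. A probe was kept if 2 or more arrays of any group showed it well above background (49916 probes), and the brightest kept probe stood for its gene. The fit used limma 3.58.1 under R 4.3.3 with lmFit and eBayes on all 14 arrays, 1 coefficient per group, two-sided tests and a Benjamini-Hochberg adjusted p under 0.05, and had been tested on simulated data; 515 values were missing. For a probe that no array of a group detected, the fold is a bound: the other group's mean over the lowest detected signal of each undetected array, or over the probe's own signal where higher. The number of arrays limits the precision, and the labels call the samples biological replicates. Slides were read from the array identifiers in the headers. Serpins past the test, Serpine2 and Serpina3n are given in full, 4 further serpins and the highest reading probe of each clade by level, and up to 4 genes past the test per partner list. The members, lists and markers were chosen with earlier results of these data known. Alternatives covered the background correction, scaling, filter, choice of probe, slide and replicate blocks, variance trend, 2-group fits and each array left out. Geriatric sample 2 was not analysed here. A serpin is included in the counts and not reported individually here.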

Additional observations from a re-analysis of the deposited data

Results flagged for a closer look

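For 2 of the 46 tested serpins the change of Geriatric versus Young cells differed from that of SAMP8 versus SAMR1 cells when the difference itself was tested, as it did for 1.73% of all genes. For Serpine2 the difference was 3.05 ± 0.35 on the log2 scale (limma, adjusted p = 0.0014), from changes of 2.93 and −0.13, and it lay between 2.68 and 3.24 and passed the test in all 26 alternative fits. For Serpina3n it was 3.81 ± 0.73 (limma, adjusted p = 0.0257), from changes of 2.85 and −0.96. It lay between 2.94 and 4.68 and did not pass in 7 of 26 alternative fits: with the replicate block, and without Young 2, Young 3, Geriatric 1, SAMR1 2, SAMR1 3 or SAMP8 2 (limma, adjusted p = 0.0522 to 0.0931). Geriatric and Young samples also differ in Xist and the Y-linked transcripts, which SAMP8 and SAMR1 samples do not, and this cannot be told apart from age.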

How the results depend on the processing

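For Old versus Young (2 serpins called) the count was 1 in the authors' deposited log2 values and among probes detected on all arrays, and 0 within slide 1, within slide 2 and when only the 2 groups were fitted. Over all genes these fits called 773, 295, 0, 0 and 43, against 472 as reported, so that the counts of 0 within slides say nothing of the serpins. For Geriatric versus Young (2 called) it was 4 with normexp and in the authors' values, 6 with a variance trend, 1 for the 2 groups alone and 0 within slide 2, where all genes called were 1674, 1181, 1932, 422 and 2, against 1377. For Geriatric versus Old (10 called) it was 18 with normexp, 5 among probes detected on all arrays, 5 within slide 2 and 4 for the 2 groups alone, where all genes called were 9320, 4816, 1553 and 3001, against 6561. For SAMP8 versus SAMR1 (0 called) it was 3 with normexp, 2 in the authors' values and 1 for the 2 groups alone, where all genes called were 263, 228 and 47, against 149. Leaving out 1 array gave 1 to 3, 1 to 4, 4 to 12 and 0 to 1 calls in these comparisons, and 1 to 3 for the difference between changes. The cause of these shifts was not tested; filters, slides and fewer groups also leave fewer probes or arrays. Scaling moved the split of the Geriatric versus Old calls, which was 2 higher and 8 lower, to 4 and 4 with quantile normalization, 3 and 6 with the array median and 3 and 4 in the authors' values, beside a median change of all genes of −0.22, which was 0.03, 0.06 and −0.01 in those fits. The Geriatric versus Old change of Serpina3n, −0.13 and not called, turned to 0.16 with the array median, 0.0154 within slide 2 and lay between −0.998 and 0.74 with 1 array left out. That of Serpine2 in SAMP8 versus SAMR1, also not called, turned to 0.0817 within slide 1 and lay between −0.26 and 0.0027 with 1 array left out. No called serpin change was reversed in any alternative run. Among samples sharing a replicate number, deviations correlated above 0.1 in 5 of 26 pairs (median −0.026), against 10 of 52 pairs with different numbers (median 0.048). In each of those 5 pairs both samples shared a slide (0.114 to 0.192), while same-number pairs on different slides reached down to −0.255. Slide and number are thus mixed, and these values do not decide whether the numbers pair the samples. With the replicate block the counts were 2, 2, 8 and 0, and 1 for the difference between changes, where Serpina3n was no longer called. Dim signals limit what can be said of 14 serpins that did not pass the filter.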
